A study of Mus musculus with 4 samples.

Results

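AP-1 and the immediate early genes were followed across the cell classes of mouse fracture callus and trabecular bone. The set is 10 genes, taken by symbol from the 32285 genes that each count table lists: the FOS family members Fos and Fosb, the JUN family members Jun, Junb and Jund, the ATF family member Atf3, the early transcription factors Egr1 and Nr4a1, and the early response genes Ier2 and Btg2. All 10 were found in all 4 tables. By the GENCODE M21 annotation of the GRCm38 assembly, Fos is at chr12:85473890-85477273, Fosb at chr7:19302696-19310051, Jun at chr4:95049034-95052222, Junb at chr8:84974484-84978718 and Jund at chr8:70698949-70700616. Atf3 is at chr1:191170296-191218039, Egr1 at chr18:34859823-34864984, Nr4a1 at chr15:101254269-101274795, Ier2 at chr8:84661331-84662852 and Btg2 at chr1:134075170-134079120.

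Each table came from 1 droplet-based single-cell RNA-Seq library (10x Genomics). Placebo-treated mice gave the control library of each tissue, callus and trabecular bone, and the GC library of each came from mice treated with the glucocorticoid (GC) prednisolone at 6.25 mg/kg/d. All mice were male C57BL/6J animals aged 20 weeks, sampled at week 2, and no group carried a genetic change. The labels describe slow-release pellets under the skin, or placebo pellets, for all 4 groups, whereas the text of the study describes daily injection for the fracture model, so the route of GC for the callus is uncertain. The tissue was flushed, crushed and digested with collagenase II, dispase II and DNase I. How many mice went into a library is not given in the sources used here. With 1 library per group there was no replicate and no test. A 95% interval below covers counting error only, because amplified molecules of 1 library say nothing of how mice differ.

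Immediate early genes are switched on within minutes of a growth factor, a cytokine, stress or mechanical load, from factors already present in the cell. FOS and JUN proteins pair through leucine zippers to form AP-1, which binds enhancers of genes for proteases, cytokines and the cell cycle. FOS proteins need a JUN partner, whereas JUN proteins also pair with each other. In bone, Fos is needed to form osteoclasts and AP-1 acts in osteoblasts and chondrocytes, and the glucocorticoid receptor is known to interfere with AP-1 at inflammatory genes. The same genes are also known to be induced while tissue is digested into single cells. How much of a level reported here digestion induced was not tested.

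Promoter sequences of RefSeq (GRCm38.p6) were matched for 8 of the 10, all but Egr1 and Ier2, and the 250 bases before the RefSeq start were searched. For Atf3 (chr1:191183334-191183583) and Nr4a1 (chr15:101266596-101266845) these windows lie inside the gene positions given above. They stand before a start within the gene, not before its outer end. The Jund window (chr8:70697489-70697738) lies upstream of the gene position given above and does not adjoin it. The cyclic AMP response element, through which CREB and ATF proteins act on many early genes, is shown because 6 of the 8 windows held its core TGACG on either strand, a core that 19.8% of all 27025 genes with a window held. The stretches that hold every copy are given 5′ to 3′ on the strand of the gene. Capitals mark TGACG, its reverse complement CGTCA, the full element TGACGTCA in Btg2, and the TATA box of Fos.
Fos, chr12:85473751-85473872, plus strand: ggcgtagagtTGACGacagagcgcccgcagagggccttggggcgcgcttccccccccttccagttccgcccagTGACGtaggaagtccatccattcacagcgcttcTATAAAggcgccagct
Fosb, chr7:19310091-19310115, minus strand: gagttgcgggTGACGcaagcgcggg
Junb, chr8:84978840-84978864, minus strand: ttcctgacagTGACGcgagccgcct
Atf3, chr1:191183334-191183350, minus strand: aatagcattaCGTCAgc
Nr4a1, chr15:101266603-101266820, plus strand: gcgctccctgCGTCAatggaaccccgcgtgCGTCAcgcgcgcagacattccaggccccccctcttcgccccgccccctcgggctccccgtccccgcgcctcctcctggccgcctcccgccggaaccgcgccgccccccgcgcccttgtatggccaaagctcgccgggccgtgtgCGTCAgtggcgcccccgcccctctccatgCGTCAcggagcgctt
Btg2, chr1:134079304-134079331, minus strand: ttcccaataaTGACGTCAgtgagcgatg

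Nr4a1 held 4 copies of the core, Fos 2, and Fosb, Junb and Atf3 1 each, while the 2 copies in Btg2 overlap within its full element TGACGTCA, which 1.77% of all genes held. The AP-1 site TGANTCA (7.82% of all genes, both strands), the CArG box (1.62%, both strands) and the glucocorticoid receptor hexamer AGAACA (18.2%, both strands) had no match in the 8 windows. The TATA box TATAAA, read on the strand of the gene, was held by Fos and by 8.94% of all genes. A match describes letters, and a missing match says nothing of more distant sites.

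In callus the control library held 95852254 and the GC library 64388215 unique molecular identifiers (UMIs), tags that count RNA molecules, and in trabecular bone the totals were 41239842 and 45876714. After filtering, 6714 control callus cells with a median of 4213 UMIs, 6890 GC callus cells (3255), 3832 control trabecular cells (6235) and 4604 GC trabecular cells (5606) remained. Pairs of libraries shared 6 to 11 cell barcodes. Cells were clustered within a tissue with the 10 genes left out, and clusters were named from markers, so that a class name below means cells like that type. Callus clusters included chondrocytes, hypertrophic chondrocytes, osteoblasts or osteocytes and stromal cells, while no trabecular cluster was named for osteoblasts, osteoclasts, chondrocytes or endothelial cells. Levels are CPM, the UMIs of a gene scaled to 1000000 UMIs of its class and library. A class was compared between GC and control with at least 30 cells in each library, which gave 16 classes in callus and 8 in trabecular bone.

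In control callus stromal cells had the highest levels of Fos, Fosb and Egr1, and the next classes for Fos and Fosb were skeletal and vessel cells. Stromal cells were highest for Fos at 2889 CPM, ahead of osteoblasts or osteocytes at 1540 CPM with no overlap of the intervals. B, T and natural killer (NK) or innate lymphoid cells were at the bottom, at 129, 130 and 127 CPM, and their intervals overlapped. Fosb, the second FOS subunit, had the same leading class, with 1824 CPM in stromal cells and 1677 CPM in hypertrophic chondrocytes, against 84.1 CPM in osteoclasts. Egr1, a zinc finger factor that responds to growth factors and load, ranged from 48.0 CPM in osteoclasts to 2081 CPM in hypertrophic chondrocytes and 2279 CPM in stromal cells, with mature neutrophils next at 1421 CPM, above osteoblasts or osteocytes at 1216 CPM. Between its highest and lowest classes the level of a gene differed 22.8-fold for Fos, 21.7-fold for Fosb and 47.5-fold for Egr1.

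The JUN family was spread differently. Jun was highest in stromal cells (1505 CPM) and endothelial cells (1185 CPM) and lowest in T cells (57.5 CPM), a 26.2-fold range. Junb, a JUN protein that also restrains Jun, was highest in mature neutrophils at 2002 CPM, with hypertrophic chondrocytes next at 1645 CPM. Jund, which resting cells of many kinds express, varied least of the 8 genes with a level above 0 in every class, 6.28-fold, and its values in endothelial cells (1398 CPM), hypertrophic chondrocytes (1366 CPM), osteoblasts or osteocytes (1358 CPM) and stromal cells (1256 CPM) overlapped in this order. Mature neutrophils thus led for Junb, and skeletal or vessel cells for the other JUN genes.

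Atf3, a stress-induced partner of JUN proteins, was highest in hypertrophic chondrocytes at 577 CPM and had no UMI in the 35 control erythroblasts, which allows up to 37.6 CPM at a floor of 3 UMIs. Nr4a1, an orphan nuclear receptor that antigen receptor signals induce in lymphocytes, was highest in B cells at 435 CPM, followed by stromal cells at 364 CPM. Ier2, a small nuclear early response protein, was at 652 CPM in stromal cells and 641 CPM in hypertrophic chondrocytes, which overlapped. Btg2, which slows cell division and is induced by p53, was highest in mature neutrophils (941 CPM) and 55.6-fold lower in osteoclasts (16.9 CPM).

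**Figure D1:**
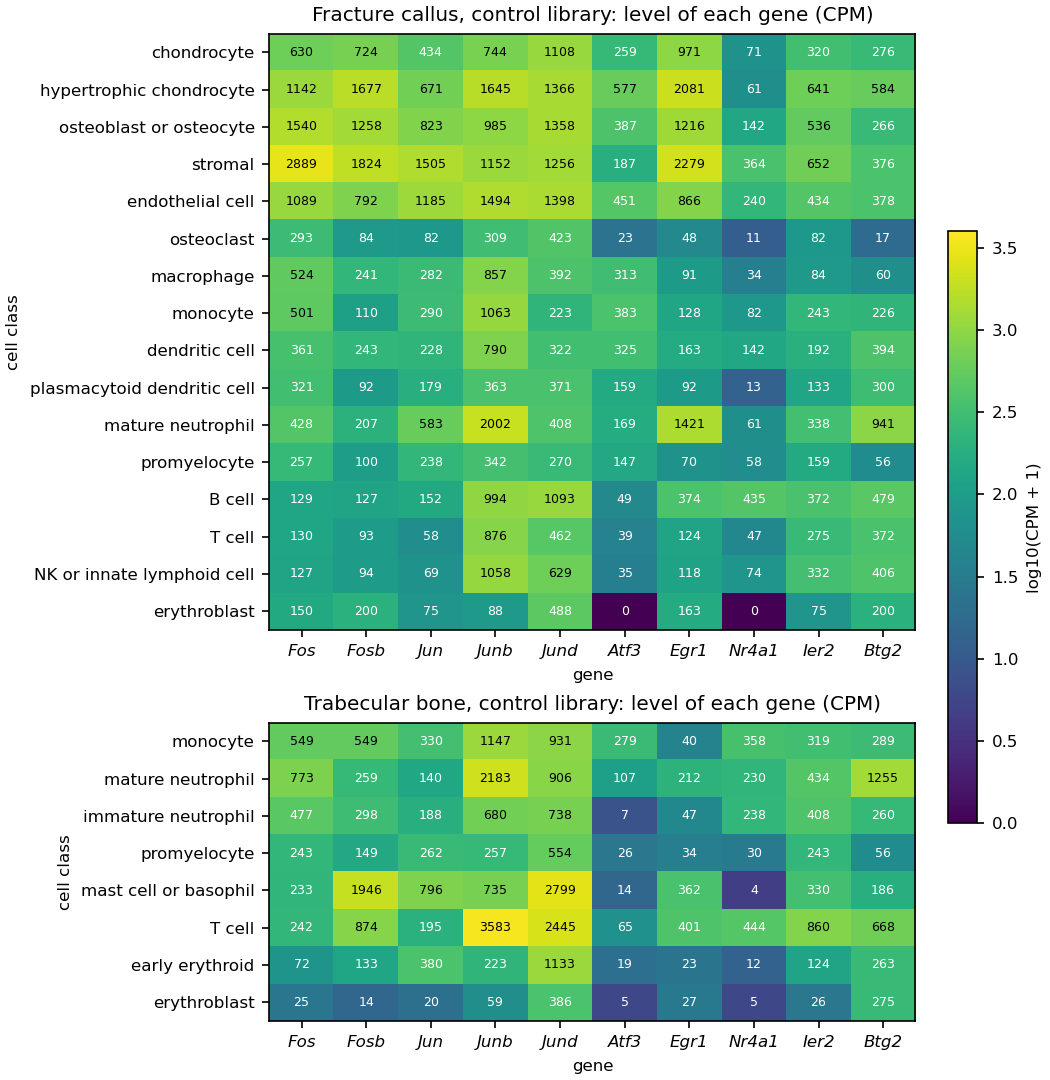
Levels of the 10 genes in the control libraries, in CPM as printed in each cell, with color on a log10(CPM + 1) scale. Rows are the classes compared between conditions in callus (top) and trabecular bone (bottom), and the stromal, hypertrophic and osteoblast rows carry the 3 highest values of Fos and of Fosb in callus, 1142 to 2889 CPM.

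In control trabecular bone the order was led by lymphocytes, mast cells or basophils and neutrophils. T cells were highest for Junb (3583 CPM), Ier2 (860 CPM), Nr4a1 (444 CPM) and Egr1 (401 CPM), the last overlapping mast cells or basophils at 362 CPM. Mast cells or basophils were highest for Fosb (1946 CPM) and Jun (796 CPM), B cells for Jund (5184 CPM), and monocytes for Atf3 (279 CPM). Mature neutrophils were highest for Fos (773 CPM) and Btg2 (1255 CPM). Erythroblasts were lowest for Fos (24.6 CPM), Fosb (14.5 CPM), Jun (20.3 CPM), Junb (59.3 CPM), Jund (386 CPM), Atf3 (5.06 CPM) and Ier2 (26.0 CPM). The few stromal cells of this tissue, 17 control and 44 GC, were too few to compare but held 5716 and 5435 CPM of Fos and 3813 and 3553 CPM of Egr1.

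Set side by side, the control libraries of the tissues differed for the same class, and tissue and library cannot be told apart here. Callus neutrophils held 6.72 times the Egr1 level of trabecular neutrophils and 4.17 times the Jun level, but 0.451 times the Jund level and 0.266 times the Nr4a1 level. Callus monocytes held 3.2 times the Egr1 level of trabecular monocytes, with Fos close to equal at 0.912 times and Fosb, Jund and Nr4a1 at 0.201, 0.239 and 0.230 times. In T cells all 10 genes were lower in callus, from 0.106 times for Fosb and Nr4a1 to 0.596 times for Atf3.

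Levels of the genes over classes and libraries varied together to different degrees. Over 33 class-by-library points in callus, each a CPM level on a log2 scale, Pearson's r of a gene with the mean of the other 9 was 0.88 for Ier2, 0.86 for Fosb and 0.85 for Egr1, and only 0.37 for Btg2. Fos and Fosb were the most alike pair (r = 0.89), and Fos and Btg2 the least (r = 0.10). In trabecular bone, over 20 points, Junb followed the others most closely (r = 0.91) and Btg2 least (r = 0.49), with Junb and Ier2 the most alike pair (r = 0.91). The points share libraries and their depth, so these values are descriptions. Outside the gene lists, the genes whose levels were most like the mean of the 10 were Afap1 (r = 0.89) and Arf4, Clu, Palld and Id1 (r = 0.86 each) of 7522 genes in callus. In trabecular bone they included Stat5b (r = 0.94) and Map3k2, Samd4b and Map4 (r = 0.93) of 6426 genes.

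Over all cells of a tissue, differences between GC and control were small. A ratio was taken as GC over control, on a log2 scale after adding 5 CPM to both levels, for genes with at least 50 UMIs over both libraries, and was called at 2-fold. In callus none of the 10 genes was called, while 0.298% of 15107 genes were called lower and 0.252% higher. Junb had the lowest ratio, 0.625, with 929 CPM in control and 581 CPM in GC. Ier2 (367 and 262 CPM), Btg2 (337 and 241 CPM), Fos (718 and 548 CPM), Jund (1047 and 814 CPM), Egr1 (1079 and 866 CPM) and Jun (472 and 394 CPM) were also lower in GC, at ratios of 0.715 to 0.833. Atf3 was nearly equal (292 and 288 CPM), and Fosb (803 and 874 CPM) and Nr4a1 (82.1 and 107 CPM) were higher in GC. The median log2 ratio of the 10 genes was -0.34, against 0.03 for all genes tested.

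In trabecular bone none of the 10 was called either, while 0.561% of 12132 genes were called lower and 0.478% higher. Nr4a1 was at 200 CPM in control and 126 CPM in GC, a ratio of 0.628, and Fos at 499 and 353 CPM, a ratio of 0.708. Jun (245 and 287 CPM), Ier2 (343 and 375 CPM) and Egr1 (112 and 122 CPM) were on the other side, at ratios of 1.17, 1.09 and 1.09. The median log2 ratio of the 10 was -0.20, against -0.03 for all genes. The makeup of the cells differed between libraries, so the classes were compared one by one.

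With cells summed by class, most callus pairs called lower in GC were in blood and immune classes. Within single chondrocyte clusters some pairs were also past 2-fold lower, as given below. Of 160 pairs of a gene and a class, 142 passed the minimum of UMIs, and 27 of these (19.0%) were called lower and 6 (4.23%) higher in GC. Over all genes, 2.66% of 84155 gene-class pairs were called lower and 2.17% higher. Among 92 pairs, the 11 blood and immune classes, osteoclasts included, held 26 of the 27 lower pairs (28.3%). They also held 5 of the 6 higher pairs. Over all genes in these classes, 3.31% of 43322 pairs were called lower and 2.71% higher. Of the 11 classes, 8 had a lower pair. The 5 skeletal and vessel classes held 1 lower and 1 higher pair among 50, where the shares over all genes were 1.97% and 1.59%. This division of the classes was made after their values were seen. The median log2 ratio over the pairs was -0.68 in the first kind of class and -0.28 in the second. Pairs of 1 class share its cells and pairs of 1 library share its handling, so the 142 pairs are not independent.

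**Figure D2:**
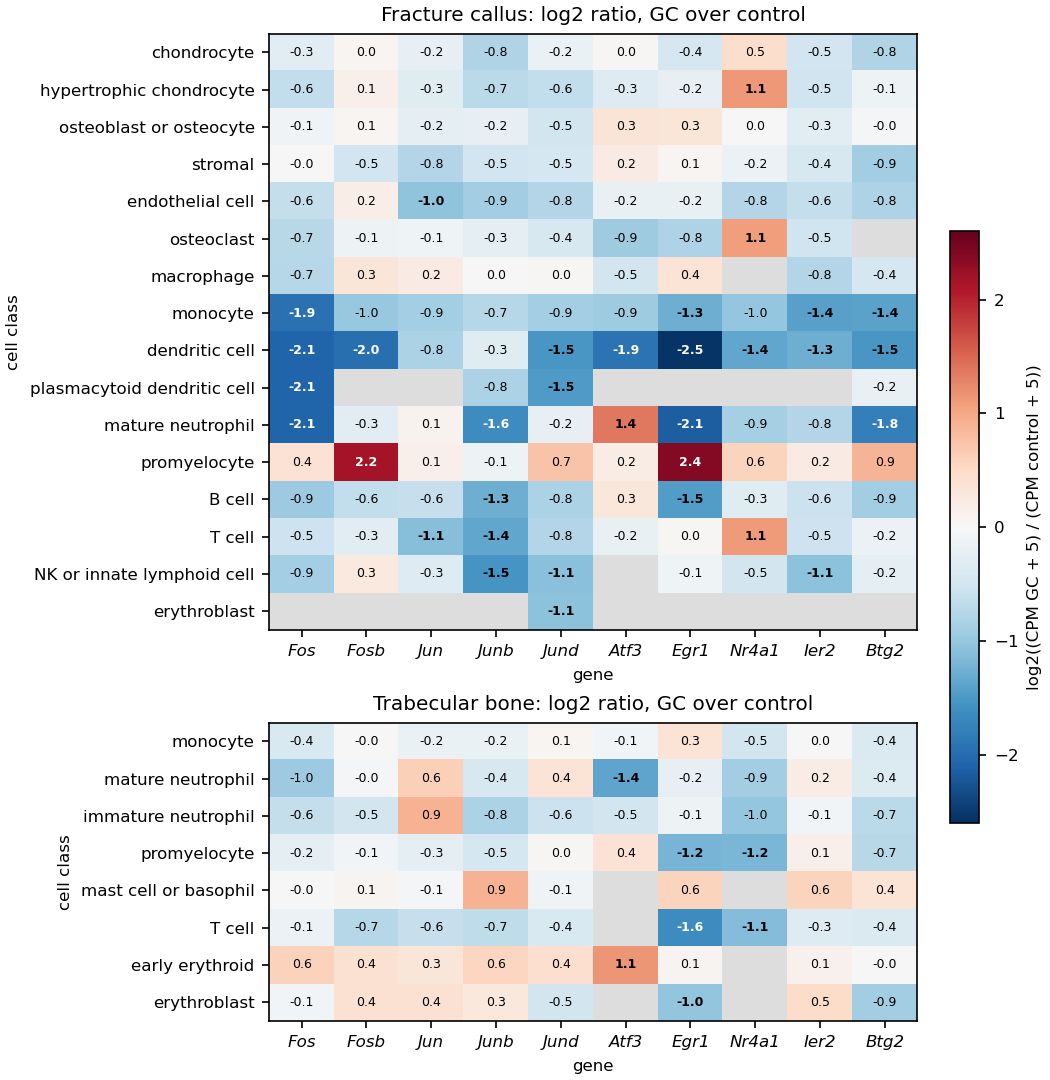
Log2 ratio of GC over control for each gene (columns) in each class (rows), after adding 5 CPM, in callus (top) and trabecular bone (bottom), with bold type for values past 2-fold and grey for pairs under 50 UMIs. The dendritic cell row holds 8 bold values below 0, and the monocyte and mature neutrophil rows 4 each.

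Fos was lower in GC by more than 2-fold in 4 callus classes, all myeloid or dendritic. In monocytes it was at 501 CPM in control and 126 CPM in GC, a ratio of 0.252 (95% interval 0.218 to 0.290). Mature neutrophils had 428 and 96.8 CPM, a ratio of 0.226 (0.191 to 0.266). Dendritic cells had 361 and 81.2 CPM, a ratio of 0.225 (0.161 to 0.309). Control values of these classes lay between 361 and 501 CPM and GC values between 81.2 and 126 CPM, classes that were named because Fos was called in them. Plasmacytoid dendritic cells had 321 and 72.5 CPM from 77 and 10 UMIs. Of 15 classes with enough UMIs, 14 had a log2 ratio of Fos below 0, and the median log2 ratio was -0.72. Fosb was called lower in 1 class, dendritic cells, with 243 CPM in control and 59.2 CPM in GC (log2 ratio -1.95), and its median over 14 classes was -0.04.

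Junb was called lower in mature neutrophils and all 3 lymphocyte classes. Neutrophils had 2002 CPM in control and 644 CPM in GC, a ratio of 0.322 (0.301 to 0.343). B cells had 994 and 408 CPM (0.411, 0.360 to 0.468), T cells 876 and 340 CPM (0.388, 0.343 to 0.438), and NK or innate lymphoid cells 1058 and 363 CPM (0.343, 0.285 to 0.411). Control levels of the 3 lymphocyte classes lay between 876 and 1058 CPM and GC levels between 340 and 408 CPM. In dendritic cells Junb stayed within 2-fold, at 790 and 629 CPM, while the other 2 JUN genes were at 322 and 110 CPM for Jund (log2 ratio -1.51) and 228 and 127 CPM for Jun (-0.82). Jund was also called lower in plasmacytoid dendritic cells (371 and 131 CPM), NK or innate lymphoid cells (629 and 292 CPM) and erythroblasts (488 and 229 CPM, from only 39 and 13 UMIs). Jun was called lower in endothelial cells (1185 and 570 CPM) and T cells (57.5 and 24.02 CPM, from 49 and 29 UMIs). The T cell call was lost under 4 of 11 settings, with log2 ratios from -1.23 to -0.82, and that of Jund in erythroblasts under 2 of 9. Without the GC-only cluster, the endothelial log2 ratio moved from -1.05 to -0.53. In neutrophils Jun was at 583 CPM in control and 622 CPM in GC, a level that hardly differed beside those of Fos and Junb.

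Atf3 went both ways. In callus mature neutrophils it was higher in GC, at 446 CPM against 169 CPM, a ratio of 2.64 (2.34 to 2.99). In dendritic cells it was lower, at 82.9 CPM against 325 CPM, a ratio of 0.255 (0.182 to 0.350). Monocytes lay between, at 200 CPM in GC and 383 CPM in control (log2 ratio -0.92). It was the 1 gene of the 10 called higher in neutrophils, beside 4 called lower. With doublets kept, its log2 ratio there was 0.80 in place of 1.38.

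Egr1 had its lowest ratio in dendritic cells, 0.146 (0.0767 to 0.256), from 163 CPM in control and 23.7 CPM in GC, which is 95 and 14 UMIs. Neutrophils had 1421 and 319 CPM (0.224, 0.205 to 0.245), B cells 374 and 134 CPM (0.357, 0.282 to 0.447) and monocytes 128 and 50.01 CPM (0.390, 0.306 to 0.494). With doublets kept, the monocyte log2 ratio of Egr1 turned from -1.28 to 0.11. Other classes did not share this, since T cells had 124 and 128 CPM, macrophages 91.1 and 118 CPM and hypertrophic chondrocytes 2081 and 1796 CPM. In promyelocytes Egr1 was at 69.9 CPM in control and 385 CPM in GC, and Fosb at 100 and 469 CPM. These 2 higher values rest on a cluster of GC cells only, which held 58 of the 92 GC promyelocytes and whose leading genes include Bmp2, F13a1 and Mpo, and without it the log2 ratios turned to -1.34 for Egr1 and -1.74 for Fosb. Nr4a1 was called higher in GC in 3 classes and lower in 1. Hypertrophic chondrocytes had 60.8 CPM in control and 139 CPM in GC, a ratio of 2.29 (2.095 to 2.496), and T cells 47.0 and 108 CPM, a ratio of 2.29 (1.598 to 3.36). Osteoclasts had 10.98 and 28.9 CPM from 24 and 59 UMIs. Dendritic cells had 142 and 52.4 CPM (log2 ratio -1.36), and monocytes, at 82.3 and 38.7 CPM, lay just inside 2-fold. Each of the 3 higher calls of Nr4a1 was lost under 2 settings, where the lowest log2 ratios were 0.98 in hypertrophic chondrocytes, 0.93 in T cells and 0.66 in osteoclasts.

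Ier2 and Btg2 were both called lower in monocytes and dendritic cells. In monocytes Ier2 was at 243 CPM in control and 88.2 CPM in GC, a ratio of 0.363 (0.303 to 0.433), and Btg2 at 226 and 82.8 CPM, a ratio of 0.366 (0.304 to 0.439). In dendritic cells Ier2 was at 192 and 76.1 CPM and Btg2 at 394 and 135 CPM. Btg2 was at 941 and 270 CPM in neutrophils, a ratio of 0.287 (0.260 to 0.317), where Ier2 stayed within 2-fold at 338 and 198 CPM. Ier2 was called lower in NK or innate lymphoid cells (332 and 156 CPM) as well, a call lost under 2 of 12 settings, where the log2 ratio nearest 0 was -0.99. Neither gene was called higher in a class.

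The values of the 27 lower pairs were recomputed under other settings, with the comparison within single clusters left out. Of these pairs 22 stayed past 2-fold in every such setting that gave a value, against 0 of the 6 higher pairs. Junb in mature neutrophils, 1 of the 22, was inside 2-fold in 1 cluster, at a log2 ratio of -0.48. Seen by class, dendritic cells stood lowest, with 8 of 10 genes called lower and a median log2 ratio of -1.51. The median of all genes in that class was 0.04, and 2.63% of them were called lower. This class joined 4 clusters. The largest number of its control cells, 36 of 95, lay in 1 cluster and that of its GC cells, 57 of 119, in another. No dendritic cluster held enough cells of both libraries to be compared within it. Cluster makeup and GC therefore cannot be told apart in dendritic cells. Monocytes had all 10 log2 ratios below 0, 4 of them called, and a median of -0.99 (0.05 for all genes, 2.17% of which were called lower). Mature neutrophils had 4 genes called lower and 1 higher, and a median of -0.81, where 2.91% of all genes were called lower and 3.83% higher and their median was 0.00. B cells had a median of -0.73, where all genes had -0.18 and 5.74% of them were called lower. Macrophages, the closest relatives of the monocytes among the classes, had a median of 0.00, with Junb at 857 CPM in control and 859 CPM in GC and Fos at 524 and 311 CPM. Osteoblasts or osteocytes had a median of -0.06, chondrocytes -0.26, hypertrophic chondrocytes -0.32 and stromal cells -0.43.

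**Figure D3:**
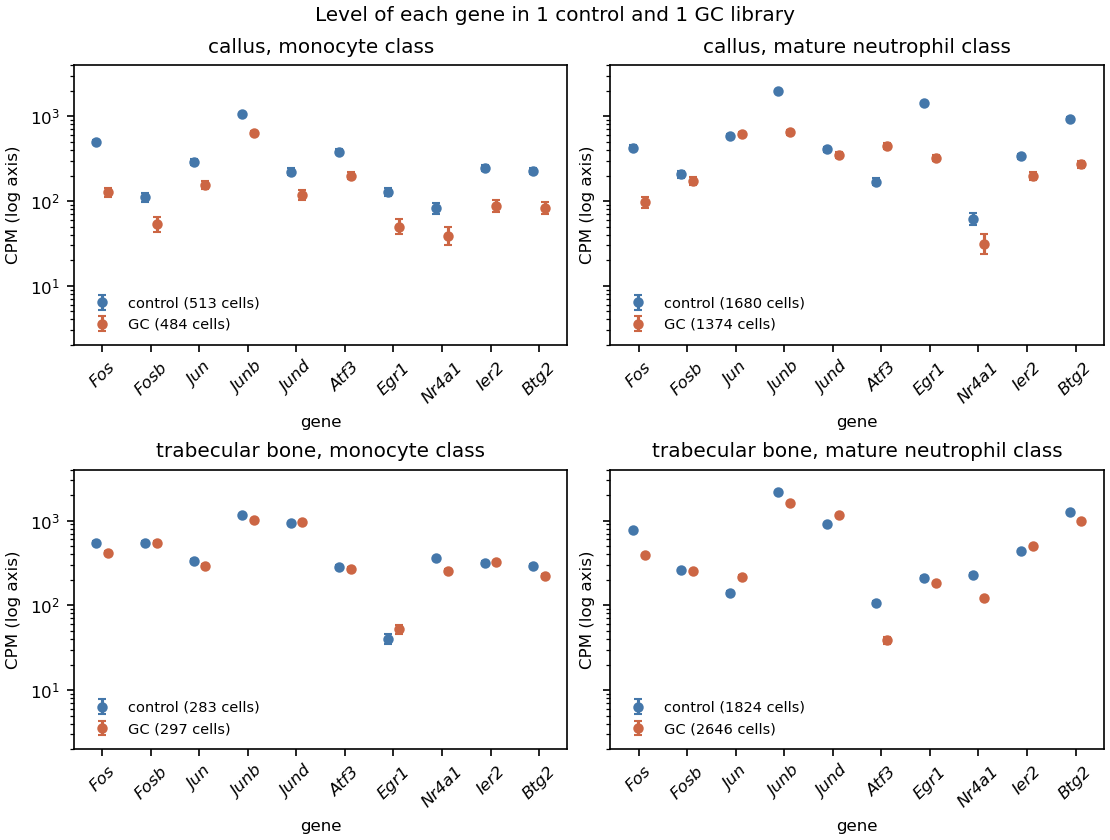
Level of each gene in CPM (log axis) in monocytes (left) and mature neutrophils (right) of callus (top) and trabecular bone (bottom), 1 point for the control library and 1 for the GC library, with 95% exact Poisson intervals that cover counting error only. In callus monocytes all 10 GC points lie below the control points, and in callus neutrophils Atf3 and Jun lie above them.

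The difference was also seen in the share of cells with a UMI, taken after every cell was thinned to 1000 UMIs so that depth was equal. Fos was found in 31.9% of 504 control monocytes (exact binomial interval 27.9% to 36.2%) and 9.21% of 467 GC monocytes (6.74% to 12.2%) of callus. Before thinning the shares were 62.8% and 25%, and thinning left out 9 and 17 cells with fewer UMIs. Junb was found in 68.1% of 1393 control neutrophils (65.5% to 70.5%) and 39.6% of 1000 GC neutrophils (36.6% to 42.7%), or 73.0% and 43.2% before thinning, which left out 287 and 374 cells. Egr1 was found in 53.4% and 22.9% of the same neutrophils, and Atf3 in 13.4% and 30.5%. Erythroblasts were the lowest class for Fos in control trabecular bone. In callus they had Fos in 16.7% of 30 control cells and in 0 of 23 GC cells (exact interval up to 14.8%). In trabecular bone they had it in 3.65% of 219 control and 0.792% of 505 GC cells. The median depth of callus erythroblasts was 1946 and 1135 UMIs, against 4641 and 3882 UMIs in monocytes.

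Other measures differed beside these results in callus, and their part in them was not tested unless a value is given. The 11 chondrocyte markers, such as collagen genes that blood cells are not known to express, summed to 3205 CPM in control and 1058 CPM in GC monocytes, to 2951 and 927 CPM in dendritic cells and to 4899 and 2224 CPM in neutrophils. All 11 had UMIs in both libraries and all 11 were higher in control in these 3 classes and in B, T and NK or innate lymphoid cells. Taking off chondrocyte RNA, scaled to these markers, removed 2.61% to 5.17% of the UMIs of control blood and immune classes. In GC it removed 0.931% to 3.24% of the UMIs of these classes other than promyelocytes. In GC promyelocytes and endothelial cells it removed 39.1% and 54.5%. The summed level of the genes in GC promyelocytes fell from 2761 to 944 CPM. After this step 34 of 142 pairs were called lower and 4 higher. The share over all genes is not given for this step, so how these counts compare with it is not read here. Fos was then at a log2 ratio of -2.0 in monocytes, -2.16 in dendritic cells and -2.28 in neutrophils, beside -1.95, -2.09 and -2.09 before. In GC promyelocytes and endothelial cells the markers summed to 26812 and 37380 CPM, against 2472 and 3069 CPM in control. Empty droplets of the control callus held Fos at 640 CPM, Junb at 909 CPM and Egr1 at 766 CPM. The GC callus table holds called cells only, so its empty droplets were not analysed. Its cells were taken as listed, while control callus cells were called here by a UMI cutoff and by profile against empty droplets. This difference in calling falls together with GC in callus, and its part was not tested.

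Heat shock genes, which digestion is also known to induce, had a median log2 ratio of -0.61 in monocytes (2 of 8 genes called lower, 0 higher), -0.46 in B cells (2 of 7 lower), -0.37 in dendritic cells (0 of 4) and -0.08 in neutrophils (0 of 6). Their part in the result was not tested. Most control neutrophils of callus lay in a cluster of 1193 control and 109 GC cells, and the largest number of GC neutrophils in another of 193 control and 564 GC cells. In the 4 neutrophil clusters with at least 30 cells of each library the log2 ratio was between -2.76 and -1.60 for Egr1, between -2.17 and -1.26 for Btg2, between -1.86 and -0.48 for Junb and between 1.31 and 1.49 for Atf3. In the monocyte cluster of 500 control and 468 GC cells, whose leading genes include Hmox1, Thbs1, Lyz2 and Tlr2, Fos was at -1.94. These genes kept their direction in each of these neutrophil and monocyte clusters. No pair was called in the chondrocyte class. In its clusters with at least 30 cells of each library, Junb had log2 ratios from -1.87 to 0.44. Ier2 had log2 ratios from -1.84 to 0.68 there. The other genes were not set out by cluster here.

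Fewer pairs were called in trabecular bone, where fewer classes were compared. Of 80 pairs 74 passed the minimum, and 6 of the 74 were called lower and 1 higher in GC. Over all genes, 0.966% of 44600 pairs were called lower and 1.11% higher. The share of lower pairs among the 10 genes was thus above that of all genes in this tissue as well. T cells, 46 in control and 166 in GC, had Nr4a1 at 444 CPM in control and 200 CPM in GC, a ratio of 0.450 (0.362 to 0.563), and Egr1 at 401 and 126 CPM, a ratio of 0.313 (0.244 to 0.402). Nr4a1 was found in 34.1% of control and 15.1% of GC T cells after thinning. Egr1 was found in 11.4% and 14.5%, which does not follow its CPM, so no order is read for Egr1 in these cells. Of the 166 GC T cells, 43 lay in a cluster of 1 library. Atf3 was at 107 CPM in control and 38.4 CPM in GC mature neutrophils, a ratio of 0.359 (0.322 to 0.400), and in 11.1% and 4.67% of the cells. Promyelocytes had Egr1 at 33.8 and 11.8 CPM and Nr4a1 at 29.8 and 10.2 CPM, erythroblasts had Egr1 at 27.5 and 10.9 CPM, and early erythroid cells had Atf3 at 19.5 and 49.4 CPM. With the comparison within single clusters left out, 3 of the 6 lower pairs stayed past 2-fold in every setting that gave a value. These were the T cell and mature neutrophil pairs, as measured by CPM. The others were lost under some, with log2 ratios nearest 0 of -0.29 for Egr1 and -0.48 for Nr4a1 in promyelocytes and -0.44 for Egr1 in erythroblasts, and Atf3 in early erythroid cells was at 0.81 with a pseudocount of 20 CPM.

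Among trabecular monocytes, mature neutrophils and immature neutrophils, 1 of 30 pairs was called, Atf3 in mature neutrophils. Over all genes, 0.311% were called lower and 0.276% higher in monocytes. The shares were 0.770% and 2.09% in mature neutrophils and 0.384% and 0.278% in immature neutrophils. Trabecular monocytes held Fos at 549 CPM in control and 414 CPM in GC (log2 ratio -0.40), Junb at 1147 and 1013 CPM (-0.18), Btg2 at 289 and 222 CPM and Egr1 at 40.1 and 52.4 CPM (0.35). Fos was found in 35.5% of control and 31.6% of GC trabecular monocytes after thinning. Mature neutrophils held Fos at 773 and 397 CPM (-0.95), Junb at 2183 and 1631 CPM (-0.42) and Btg2 at 1255 and 981 CPM. Immature neutrophils had 9 of 10 log2 ratios below 0 and a median of -0.52 (0.02 for all genes), with Fos at 477 and 310 CPM, Junb at 680 and 383 CPM, Nr4a1 at 238 and 117 CPM (just inside 2-fold) and Jun higher at 188 and 355 CPM. Of the mature neutrophils of this tissue, 1524 of 1824 control and 2540 of 2646 GC cells lay in clusters of 1 library, so neutrophil state and library cannot be told apart. The difference between the tissues in the effect of GC was not tested, since each tissue had 1 library per condition.

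The number of the 10 genes found in a single cell was also compared. After thinning to 1000 UMIs, 3 or more of the 10 genes were found in 54.3% of control and 43.4% of GC callus cells. Among monocytes the shares were 31.7% (27.7% to 36.0%) and 10.3% (7.68% to 13.4%), and among neutrophils 67.8% (65.2% to 70.2%) and 41.9% (38.8% to 45.03%). B cells had 46.4% and 24.1%, T cells 30.5% and 13.4%, and NK or innate lymphoid cells 36.6% and 9.32%. The control and GC intervals did not overlap in any of these 5 classes, which were not all the classes compared. Dendritic cells had 27.4% (18.7% to 37.5%) and 11.9% (6.64% to 19.1%), which overlapped. Promyelocytes went the other way without overlap, at 14.6% (5.57% to 29.2%) and 56.0% (45.2% to 66.4%). Endothelial cells had 55.1% and 71.1%, which overlapped. Clusters of GC cells only held 58 of the 92 GC promyelocytes and 68 of the 150 GC endothelial cells. Chondrocyte markers summed to 26812 CPM in GC promyelocytes, above the 3536 CPM of promyelocyte markers, and to 37380 CPM in GC endothelial cells. The part of these cells in the 2 shares was not tested. No share over all genes was computed for this measure, so overlap or its lack is not read as particular to the 10 genes. Hypertrophic chondrocytes had 75.1% (71.5% to 78.5%) and 59.3% (55.5% to 63.0%), while chondrocytes had 58.1% and 60.4%, which overlapped. Chondrocyte depth differed widely before thinning, with medians of 24706 UMIs in control and 5766 UMIs in GC, and 1220 GC chondrocytes lay in clusters of 1 library. In trabecular bone monocytes had 72.3% and 65.7%, which overlapped. Without overlap, mature neutrophils there had 74.0% (71.9% to 76.0%) and 65.5% (63.7% to 67.4%). Immature neutrophils had 48.2% (44.4% to 52.1%) and 30.2% (26.0% to 34.6%), also without overlap.

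**Figure D4:**
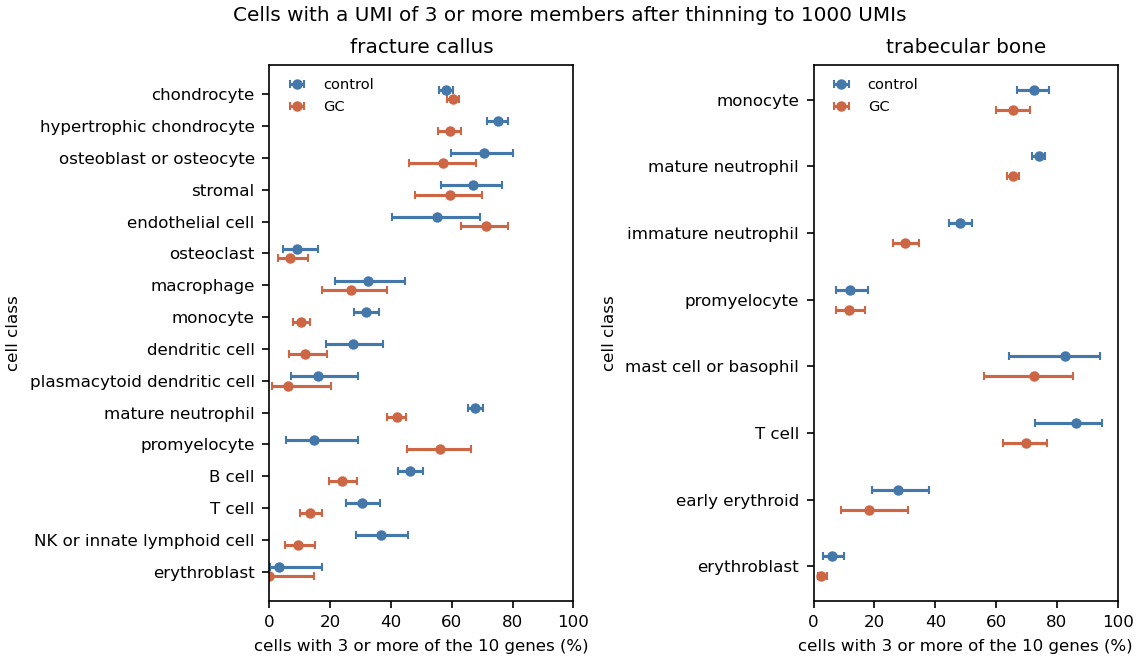
Share of cells (%) with a UMI of 3 or more of the 10 genes after each cell was thinned to 1000 UMIs, by class, for the control and GC libraries of callus (left) and trabecular bone (right), with 95% exact binomial intervals for counting error. Monocytes of callus sit at 31.7% in control and 10.3% in GC, and those of trabecular bone at 72.3% and 65.7%.

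Related gene lists were set beside the 10 genes, with the lowest and highest genes of a list taken by the log2 ratio after adding 5 CPM, which shrinks low levels. Over all callus cells, none of 10 other AP-1 genes with enough UMIs was called (median log2 ratio 0.13, all genes 0.03). Fosl1, a FOS family member, had the lowest ratio with 88.6 CPM in control and 58.5 CPM in GC, followed by Batf3 (33.2 and 25.4 CPM), and Atf2 (27.5 and 38.7 CPM) and Jdp2 (47.5 and 61.4 CPM) had the highest. Among 30 other early genes 1 was called lower, Ier3, a survival gene, at 701 CPM in control and 164 CPM in GC, a ratio of 0.234 (0.229 to 0.240). Cebpb was at 481 and 310 CPM, and Nr4a2 (99.1 and 149 CPM) and Myc (64.1 and 106 CPM) were at the top. The 11 upstream kinases and factors had ratios from 0.925 for Mapk8 and 0.966 for Elk1 to 1.27 for Mapk14 and 1.32 for Srf. Of 11 known AP-1 targets 2 were called lower, both inflammatory: the cytokine gene Il1b (211 and 54.3 CPM) and the chemokine gene Ccl2 (17.6 and 5.39 CPM). Cd44 and Mmp9 had ratios of 1.34 and 1.43.

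Glucocorticoid response genes were set beside them as a sign of exposure. In callus none of 10 was called, with a median log2 ratio of 0.28. Sgk1 was at 533 CPM in control and 975 CPM in GC and Fkbp5 at 19.8 and 30.9 CPM, while Ddit4 (48.6 and 24.7 CPM) and Per1 (52.4 and 39.4 CPM) were lower. In trabecular bone 5 of 9 were called higher and 0 lower, with a median of 1.04. Fkbp5, which restrains the glucocorticoid receptor, was at 16.1 CPM in control and 60.2 CPM in GC there, and Zbtb16 at 1.71 and 12.1 CPM. Callus dendritic cells, monocytes and neutrophils, with median log2 ratios of the 10 genes of -1.51, -0.99 and -0.81, had glucocorticoid response medians of 0.17, -0.04 and 0.12. In the other callus classes with a value this median ran from -0.10 in stromal cells to 0.78 in macrophages, with osteoclasts at 0.66. Trabecular neutrophils and monocytes had 1.53 and 0.73, beside medians of the 10 genes of -0.28 and -0.11 and of all genes of 0.23 and 0.00.

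In trabecular bone the other lists stayed close to all genes. None of 9 other AP-1 genes was called (median 0.02), with Fosl1 (85.7 and 59.1 CPM) and Mafk (62.2 and 48.9 CPM) lowest and Batf (8.33 and 14.2 CPM) and Jdp2 (70.6 and 119 CPM) highest. None of 30 other early genes was called (median 0.13). Dusp5 (123 and 73.4 CPM) and Klf4 (223 and 153 CPM) were lowest, and Cyr61 (1.65 and 6.52 CPM) and Ctgf (0.325 and 4.53 CPM) highest from low levels. The upstream list ran from 0.798 for Mapk8 and 0.828 for Mapk9 to 1.01 for Mapk3 and 1.02 for Elk1, and the AP-1 targets had Ptgs2 (0.695) and Mmp9 (0.861) lowest and Ccl2 (1.19) and Il6 (1.61) highest by the log2 ratio after adding 5 CPM, while the plain ratio was 2.12 for Timp1 and 1.32 for Ccnd1, both from low levels. Of the 9 heat shock genes none was called in either tissue (median -0.08 in both). In callus they ran from 0.741 for Hspa1b and 0.843 for Hspa8 to 1.18 for Dnaja1 and 1.20 for Hsph1. In trabecular bone the ends were Hspa1a (8.56 and 3.65 CPM), Hspa1b (7.17 and 3.49 CPM), Hspb1 (1.42 and 2.98 CPM) and Hspa8 (709 and 906 CPM).

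Within callus myeloid classes the wider early gene list leaned the same way by smaller amounts. Of 29 other early genes in neutrophils 8 were called lower and 2 higher (median -0.44), of 28 in monocytes 5 and 1 (-0.26), and of 22 in dendritic cells 4 and 2 (-0.37). Over all genes, 2.91% were called lower and 3.83% higher in neutrophils, 2.17% and 2.37% in monocytes, and 2.63% and 2.66% in dendritic cells. The other AP-1 genes had medians of 0.22, -0.06 and 0.02 in these classes, with 1 gene called lower in neutrophils. AP-1 targets had 3 of 7 called lower in monocytes (median -0.72), 2 of 7 in neutrophils (-0.69), 2 of 6 in dendritic cells (-0.10) and 3 of 4 in T cells (-1.23). Of all genes in callus T cells, 2.22% were called lower and 0.560% higher. The median of the 10 genes was below the medians of these 3 lists in monocytes, dendritic cells and neutrophils, a description that was not tested.

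**Figure D5:**
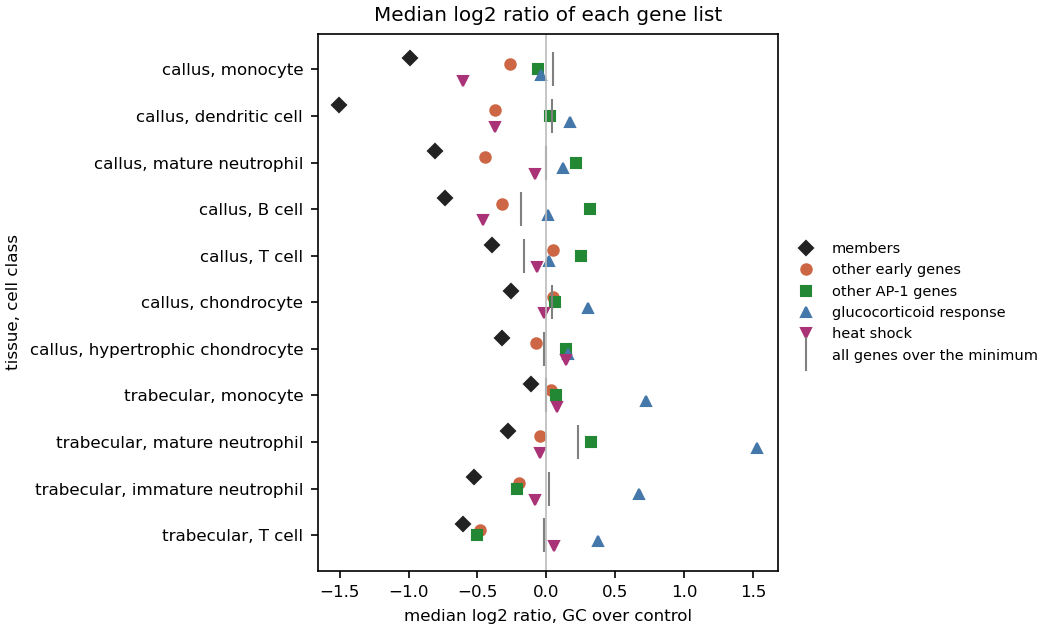
Median log2 ratio of GC over control for 5 gene lists in 11 tissue and class combinations, with a vertical tick for the median of all genes over the minimum of UMIs. The diamonds of the 10 genes lie at -1.51 in callus dendritic cells, -0.99 in callus monocytes and -0.11 in trabecular monocytes, while glucocorticoid response genes reach 1.53 in trabecular neutrophils.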

How the data were processed

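Single-cell RNA-Seq was read from 4 tables of UMI counts as deposited. Per the file headers the authors made them with Cell Ranger 4, while the submitters' processing notes name Cell Ranger 5.0.1, Seurat 3.2.0 and mm10. The GC callus table held 7762 called cells, and the other 3 held 6794880 barcodes each. In these 3, cells were called above 10% of the 99th percentile of the top 3000 barcodes, or from 500 UMIs by profile against empty droplets (10000 simulations, adjusted p 0.01). Cells had at least 200 genes and at most 10% mitochondrial UMIs, and doublets were removed at 0.8% per 1000 cells.

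Clustering used 2000 variable genes, 30 components, 15 neighbors and Leiden resolution 1 (leidenalg 0.10.2, scikit-learn 1.9.0, scipy 1.17.1, Python 3.11.15). A cluster was named with at least 3 markers and 50% of a list at 2-fold or more over the median cluster in 10% of its cells. Members and lists were chosen with earlier results of these data known. Named were all members, the 2 lowest and 2 highest ratios over all cells in each list, and the 5 genes most like the members in pattern, of which 1 in trabecular bone is not reported here. With 1 library per group, a call was 2-fold and no p-value was computed. The scripts were tested on simulated data. Alternative settings covered pseudocount, UMI minimum, cell filters, scaling, doublets, resolution and free RNA.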

Additional observations from a re-analysis of the deposited data

Results flagged for a closer look

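Among the 10 genes, 3 had log2 ratios of GC over control past 2-fold in opposite directions in the same class of the different tissues. Each value rests on 1 library per condition, and the difference between the tissues was not tested. Nr4a1 in T cells was at 1.12 in callus and -1.13 in trabecular bone. Atf3 in mature neutrophils was at 1.38 in callus and -1.37 in trabecular bone. Egr1 in promyelocytes was at 2.38 in callus and -1.20 in trabecular bone, and the callus value was -1.34 without the cluster of GC cells only.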

How the results depend on the processing

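The count of callus pairs called lower, 27 as reported, was 19 to 34 under the other settings except the cluster setting below, and the count called higher, 6 as reported, was 3 with a pseudocount of 20 CPM and 3 at Leiden resolution 2. The trabecular count called lower, 6 as reported, was 3 with a pseudocount of 20 CPM and 3 at a minimum of 200 UMIs. The trabecular count called higher, 1 as reported, was 0 with either of these and 2 at a minimum of 10 UMIs. Counted within clusters that held at least 30 cells of both libraries, 61 of 266 callus pairs were lower and 15 higher, and 4 of 90 trabecular pairs were lower and 4 higher. The share over all genes is not given for this setting or the other settings, so how these counts compare with it is not read here. Counting within clusters, leaving out clusters of 1 library and taking off chondrocyte RNA were chosen after seeing the data. Of 457 recomputed values of 40 named pairs, 415 moved by less than counting error, 38 moved by more and 4 reversed. Egr1 in callus monocytes was at a log2 ratio of 0.11 with no doublets removed. In callus promyelocytes Fosb was at -1.74 and Egr1 at -1.34 without clusters of 1 library, and Egr1 was at -3.16 with chondrocyte RNA taken off. The cause was not tested. The median log2 ratio over all cells stayed between -0.37 and -0.29 in callus and between -0.20 and -0.11 in trabecular bone. No paired analysis was possible because each group has 1 library.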
